A study of Mus musculus with 18 samples.

Results

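Loss of the transcription factor Myc from the small-intestinal crypts of mice was compared with control crypts over all measured genes. The comparison uses 8 of the 18 arrays of the study, the 4 titled Myc KO and the 4 titled control. It covers 18193 genes, each represented by the probe set with 1 gene symbol and the highest mean log2 signal over the 18 arrays. Control crypts carry no named deletion, and what alleles or transgenes the control mice carried was not stated in the sources used here. In Myc KO crypts Myc was deleted by Ah-cre, an inducible Cre recombinase used for the intestine and driven by the promoter of Cyp1a1, a gene induced through the aryl hydrocarbon receptor. All mice were adults aged 2 months, and crypts were harvested 2 days after deletion. The other 10 arrays are labelled as crypts without E2f1, E2f2 and E2f3 (E2f TKO, 5 arrays) and as crypts without those genes and Myc (E2f/Myc QKO, called QKO here, 5 arrays). They enter the fit and give a second measure of Myc loss, from other arrays but with a shared estimate of the spread. The labels give no sex, strain, batch or date. They number samples within a group and do not say that each sample is a separate mouse, so p-values measure the spread between these samples, which may be technical.

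Myc pairs with Max and binds the sequence CACGTG, called an E-box, in the promoters of many growth genes. It is known for raising the genes of ribosome assembly, of nucleotide synthesis and of translation. In the crypt, the dividing compartment at the base of each villus, Myc is a target of Wnt signalling and is made mostly by stem cells and transit-amplifying cells. Max, Mnt, Mga and the Mxd proteins form a network in which complexes without Myc occupy the same sites and mostly repress.

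Levels below are the log2 signals that the authors deposited, so a difference of 1 is a 2-fold change. Levels of different probe sets are not compared, and signals near the array medians (6.15 to 6.26 in these 8 arrays) are not shown to be above background. A gene rose or fell here if limma gave it an adjusted p below 0.05 over the 18193 genes. Differences are Myc KO minus control and are followed by the standard error of the fit. In RNA from whole crypts, fewer cells of a type and less RNA per cell cannot be told apart.

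The arrays looked like crypt epithelium in both groups. The epithelial gene Epcam read 14.02 to 14.16 in control and 14.10 to 14.23 in Myc KO arrays. Olfm4, a marker of crypt base stem cells, read 12.99 to 13.21 and 12.84 to 13.09, and Lyz1, the lysozyme of Paneth cells, 14.54 to 14.62 and 14.42 to 14.61. The fibroblast collagen gene Col1a1 stayed at 5.17 to 5.57 and the endothelial gene Pecam1 at 4.65 to 5.06, below the array medians. Ptprc, the pan-leukocyte marker, ran from 5.74 to 8.69, so leukocyte RNA was present in varying amount. Cyp1a1 read 12.66 to 13.80 in control and 13.53 to 13.71 in Myc KO arrays. Of a pair of RNA quality measures, the actin control probe sets differed between 3' and 5' ends by 0.31 to 0.44 in control and 0.18 to 0.22 in Myc KO arrays, without overlap, and those of Gapdh overlapped (-0.20 to -0.09 and -0.14 to -0.06). Counts are therefore also given from a fit with the actin difference as a covariate, which was added after the data were seen. Why the actin difference arose and what part it had in any result were not tested. The signal of Xist, a gene of the inactive X chromosome, was high in control 3 alone among the 8 arrays.

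Myc itself fell in every Myc KO array. Its probe set read 9.90, 9.77, 9.69 and 10.30 in control arrays 1 to 4 and 8.40, 8.19, 8.11 and 8.25 in Myc KO arrays 1 to 4. The groups lie more than 1 log2 unit apart, with a difference of -1.68 ± 0.16 (adjusted p = 3.12e-05). Of the 13 measured members of the Myc, Max and Mxd network, 2 fell and 0 rose. The other that fell was Mga, which encodes a large Max-binding repressor (-0.73 ± 0.16, adjusted p = 0.0107). Its call was lost with its 5 probe sets averaged and with the actin covariate (adjusted p up to 0.593), and its other probe sets changed by -0.02 to 0.24. The relatives Mycn (0.10) and Mycl (0.04) and the partner Max (-0.16) did not pass. Of the 100 measured genes nearest to Myc on chromosome 15, 5 rose and 8 fell, against 3.59% and 4.72% of all genes. Both shares lie above those of all genes, and whether by more than chance was not tested.

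Across all genes, 1511 of 18193 passed the test, which is 8.31%. Of these, 653 rose (3.59% of genes) and 858 fell (4.72%), so 56.8% of calls were falls. Array medians did not overlap, at 6.15 to 6.16 in control and 6.22 to 6.26 in Myc KO arrays. The standard deviation of an array's log2 signals was 2.43 to 2.46 in control and 2.38 to 2.41 in Myc KO arrays. Median centring, which removes the difference in medians, gave 285 rises and 1646 falls, 85.2% falls. Most changes were small: 28 genes rose and 40 fell at least 2-fold, and 1443 calls (95.5%) were smaller. The genes that fell had a median control level of 9.23, against 7.18 for all genes and 6.74 for those that rose. In 4077 genes (22.4%) the 4 Myc KO arrays did not overlap the 4 control arrays, and 1433 of the 1511 calls were among them. The number of calls was 640 without Myc KO 2, 664 without control 4, 822 without control 2, 855 without Myc KO 1, 982 without control 3 and 560 with the actin covariate, which kept 488 of the 1511.

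**Figure D1:**
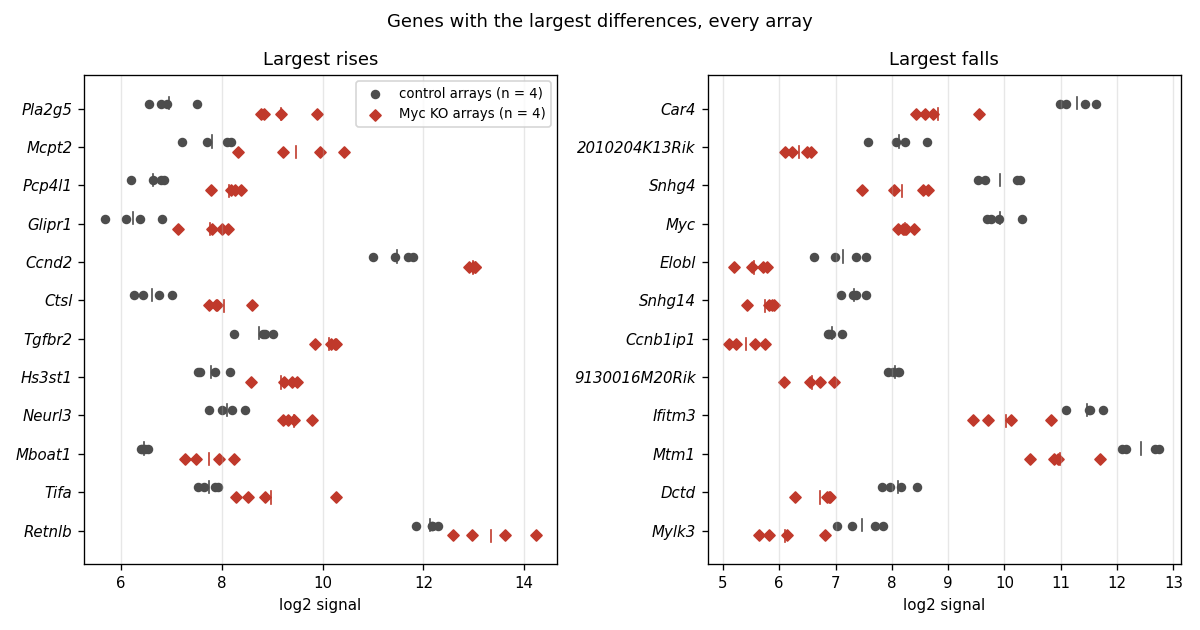
Log2 signal (x axis) of the 12 genes with the largest rises (left) and falls (right) among genes past the test whose arrays do not overlap. Circles are the 4 control arrays, diamonds the 4 Myc KO arrays, and short vertical lines the group means. Ccnd2 has Myc KO arrays from 12.91 to 13.03, and Car4 falls from a control mean of 11.28 to 8.82.

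Ribosome assembly genes fell as a group and none of them rose. In the small-subunit processome and its box C/D ribonucleoproteins, which process the precursor of the 18S RNA, 16 of 46 measured genes fell (34.8%, against 4.72% of all genes) and the median difference was -0.38, against 0.02 over all genes. In large-subunit assembly 27 of 46 fell (58.7%), with a median of -0.51. With the actin covariate 5 and 12 fell, and the medians were -0.29 and -0.41. Without control 4 the counts were 7 and 16.

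Nop56, a core protein of box C/D particles, read 11.21, 11.05, 10.91 and 11.44 in the control and 10.18, 9.89, 10.20 and 10.25 in the Myc KO arrays, a difference of -1.02 ± 0.20 (adjusted p = 0.00632). Npm1, which encodes the abundant nucleolar protein nucleophosmin, read 12.73, 12.94, 12.73 and 13.03 and then 11.78, 11.51, 11.80 and 12.07 (-1.07 ± 0.16, adjusted p = 0.00127). Gnl3, the gene of the nucleolar GTPase nucleostemin, read 10.28, 10.34, 10.12 and 10.57 and then 9.30, 9.05, 9.31 and 9.45 (-1.05 ± 0.18, adjusted p = 0.00221). All 3 separate the groups in all 8 arrays, and in each Myc KO 2 is the lowest array and control 4 the highest. Rcl1 (-0.92), Wdr46 (-0.84) and Dnttip2 (-0.52) of the small-subunit list and Nop16 (-0.88), Ftsj3 (-0.80), Nsa2 (-0.73) and Ncl (-0.72), the nucleolin gene, also fell, with adjusted p from 0.00105 to 0.00568. Box H/ACA particles guide pseudouridine formation in RNA and include the telomerase holoenzyme proteins. In the list of these particles and related factors, 4 of 10 measured genes fell (Naf1, Nhp2, Dkc1 and Nop53), or 2 with the actin covariate. All 10 lay below control, with Naf1, an assembly factor, at -1.07 ± 0.21 (adjusted p = 0.00549).

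The small nucleolar RNA host genes, whose introns release the guide RNAs of these particles, had the lowest list median. Of 17 measured, 10 fell and 1 rose, with a median of -0.79. With the actin covariate 8 fell and 1 rose, with a median of -0.64. Snhg4 read 9.53, 10.27, 9.66 and 10.21 in the control and 8.04, 7.47, 8.64 and 8.55 in the Myc KO arrays (-1.75 ± 0.34, adjusted p = 0.00595). Snhg6 read 9.87, 10.11, 10.10 and 10.23 and then 8.99, 8.76, 9.04 and 9.05 (-1.12 ± 0.15, adjusted p = 0.000458). Snhg14, an imprinted host transcript, changed by -1.57 ± 0.17 (adjusted p = 7.16e-05). Gas5 (-0.96), Zfas1 (-0.88), Snhg1 (-0.82) and Snhg8 (-0.80) followed. The member that rose was Snhg11 (0.39 ± 0.08, adjusted p = 0.00694), a call lost with its 2 probe sets averaged (adjusted p = 0.131).

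RNA polymerase I makes the large ribosomal RNA precursor and polymerase III the 5S and transfer RNAs. Of 32 measured genes of both machines, 9 fell (28.1%, against 4.72% of all genes) and 0 rose, with a median of -0.19. With the actin covariate or without control 4 the list had 5 falls. Polr1b, the second-largest polymerase I subunit, read 9.12 to 9.39 in control and 8.15 to 8.54 in Myc KO arrays (-0.90 ± 0.18, adjusted p = 0.00658). Polr1c, shared by polymerases I and III, changed by -0.51 and Polr3g by -0.67.

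Cytosolic ribosomal protein genes fell by smaller amounts and from high levels. All 46 measured genes lay below control, 30 fell (65.2%), and the median was -0.33, or -0.24 after quantile normalization, where 21 fell. With the actin covariate 12 fell and the median was -0.27, and without Myc KO 2 the count was 16. Rpl37 read 11.53, 11.68, 11.57 and 11.65 in the control and 10.30, 10.06, 10.40 and 10.60 in the Myc KO arrays (-1.27 ± 0.15, adjusted p = 0.000121). That probe set has the suffix _x_at, which marks probes that also match other transcripts, and ribosomal protein genes have many near-identical pseudogenes, so its signal may be shared. Rpl22l1 changed by -0.99 ± 0.12 and Rpl4 by -0.48 ± 0.07. The list holds 81 genes, and the other 35 were not among the measured genes.

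Other parts of the translation machinery moved the same way. Of 45 measured translation factor genes, 15 fell and 0 rose (median -0.29), against 8 without control 4 and 6 with the actin covariate. Among them were Eef1b2, an exchange factor of elongation, at -0.84 ± 0.12 and Eif1a, a start-codon scanning factor, at -0.95 ± 0.14 (adjusted p = 0.000495 and 0.000987). Of 37 genes of aminoacyl-tRNA synthetases and their cofactors, 11 fell and 1 rose (median -0.24). The call of each of Iars2 (-0.63), Eprs (-0.54) and Iars (-0.60) was lost with the actin covariate (adjusted p = 0.0544, 0.0629 and 0.108), and of this list 1 fell in that fit. Without control 2 the list had 3 calls. Iars was also lost without control 2, control 4, Myc KO 1 or Myc KO 2 (adjusted p up to 0.0641). The member that rose was Aars (0.30 ± 0.08, adjusted p = 0.0314), lost when any 1 of the 8 arrays was left out, with median centring and with the actin covariate (adjusted p up to 0.108). The other Aars probe set changed by 0.47. Mitochondrial ribosomal proteins had 12 falls among 74 (median -0.19), led by Mrpl19 (-0.72 ± 0.13), and 3 with the actin covariate, 4 without control 4, and 5 falls and 1 rise after quantile normalization.

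Enzymes that make nucleotides fell as well. Of 26 measured genes of purine and pyrimidine synthesis and salvage, 12 fell and 0 rose (46.2%), with a median of -0.44, and 4 fell with the actin covariate. Without control 4 the count was 6. Adk, which encodes adenosine kinase of the salvage route, read 11.51, 11.61, 11.54 and 11.50 in the control and 10.40, 10.14, 10.64 and 10.67 in the Myc KO arrays (-1.08 ± 0.11, adjusted p = 6.36e-05). Cad, whose protein carries out the first steps of pyrimidine synthesis, read 9.10 to 9.50 in control and 8.26 to 8.42 in Myc KO arrays (-0.95 ± 0.19, adjusted p = 0.00574). Dhodh, the mitochondrial step of the same route, changed by -0.82 and Nme2, a nucleoside diphosphate kinase gene, by -0.51. Ppat, the first committed enzyme of purine synthesis, changed by -0.91 ± 0.20, lost with the actin covariate (adjusted p = 0.0645). The Adk value is from a probe set with the suffix _x_at, and its 5 other probe sets changed by -0.66 to 0.16.

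Serine hydroxymethyltransferases supply the carbon unit for these bases. Shmt2, the mitochondrial form, read at most 9.25 in the Myc KO arrays (8.97, 9.03, 9.25 and 9.14) and was higher in each control array, with 10.59 the highest (-1.21 ± 0.21, adjusted p = 0.00243), and Shmt1, the cytosolic form, changed by -0.88 ± 0.17. They were among 4 of 17 serine, folate and methyl cycle genes that fell (23.5%, against 4.72% of all genes), or 3 with the actin covariate. Of 9 genes of deoxynucleotide supply 1 fell (11.1%), Dctd, the deoxycytidylate deaminase gene (-1.37 ± 0.24, adjusted p = 0.0026). Among 8 polyamine genes 2 fell and 1 rose, so 37.5% passed, against 8.31% of all genes. Srm, the spermidine synthase gene, changed by -0.91 ± 0.19 (adjusted p = 0.00758). Oaz2, an antizyme gene, changed by 0.36 ± 0.09 (adjusted p = 0.0249), a call lost without control 3 or 4 or Myc KO 2, 3 or 4, with median centring and with the actin covariate (adjusted p up to 0.143).

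Transport and folding genes followed the same direction. Of 27 importin and exportin genes 6 fell (22.2%, against 4.72% of all genes) and 0 rose (median -0.27), and 3 fell with the actin covariate. Ipo4, whose importin carries ribosomal proteins and histones, had the smallest p of the comparison, followed by Myc. It read 10.01, 9.94, 9.85 and 10.13 in the control and 9.03, 9.05, 9.02 and 9.13 in the Myc KO arrays (-0.92 ± 0.09, adjusted p = 3.12e-05). Of 28 chaperonin and mitochondrial import or folding genes, 9 fell and all 28 lay below control (median -0.30), and 4 fell with the actin covariate and 5 without control 4. Tomm70a, a receptor of the outer mitochondrial membrane, changed by -0.73 ± 0.10 and Tomm20 by -0.47 ± 0.07. Of 35 genes often cited as Myc-induced, 11 fell and 0 rose (median -0.33), or 7 fell with the actin covariate. Wdr77 (-1.10 ± 0.17) and Pa2g4 (-0.89 ± 0.13) were among them, as were Npm1 and Nme2, which lists above also count.

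**Figure D2:**
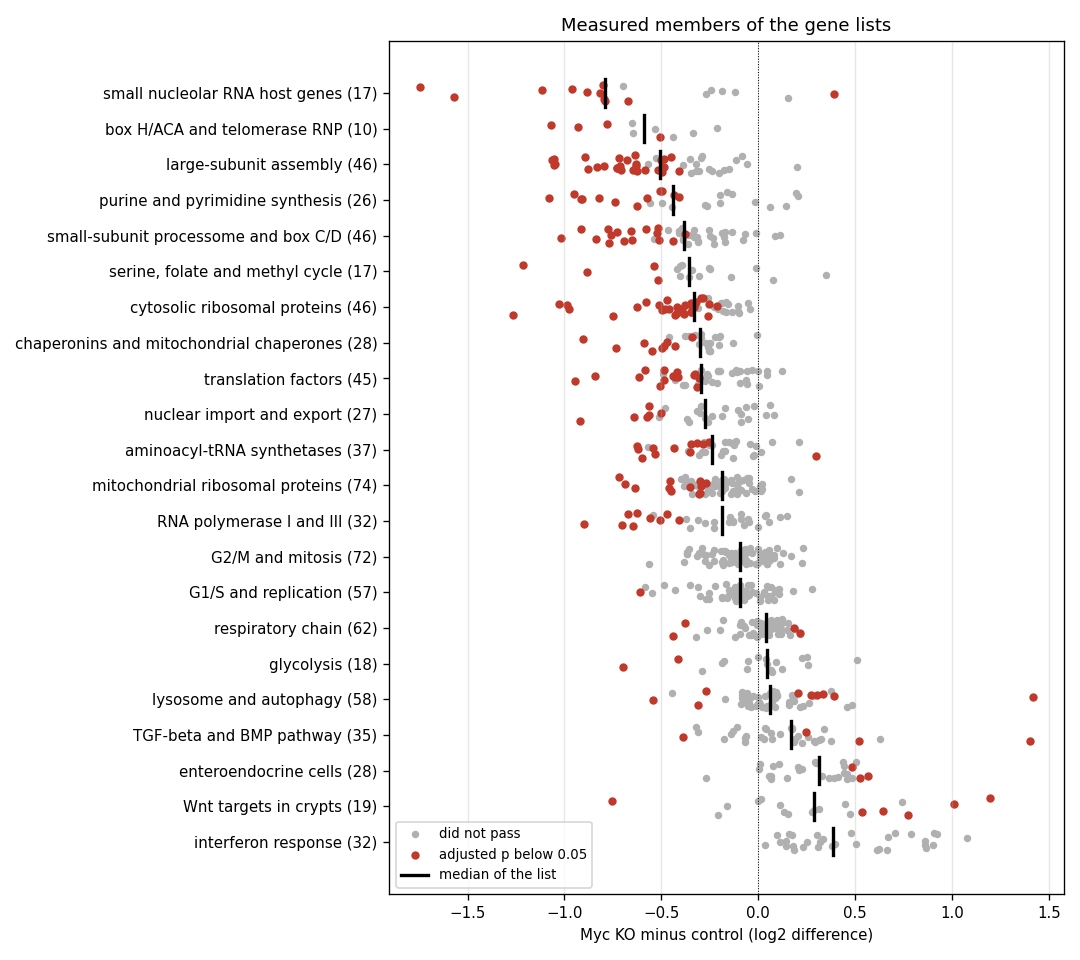
Log2 difference, Myc KO minus control (x axis), of every measured member of 22 gene lists, with the number measured in parentheses. Red points passed the test at an adjusted p below 0.05, grey points did not, and black bars are list medians, which run from -0.79 for small nucleolar RNA host genes to 0.39 for the interferon response.

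Energy metabolism did not move as a block. Among 62 measured respiratory chain genes 2 rose and 2 fell, so 6.45% passed, against 8.31% of all genes. Their median of 0.04 was -0.04 after median centring and 0.10 after quantile normalization, where 11 rose and 2 fell. With median centring 0 rose and 3 fell. Among 18 glycolysis genes 2 fell (11.1%, against 4.72% of all genes). They were Slc16a1 (-0.70 ± 0.13, adjusted p = 0.00513), a lactate transporter gene, and Pgam1 (-0.41 ± 0.08, adjusted p = 0.00709). The median of that list was 0.04.

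The CACGTG E-box was searched in promoter windows from RefSeq (GRCm38.p6), which run from 250 bases before to 50 after each start. The motif is its own reverse complement, so a match stands on both strands, and no other motif was searched. It occurred in 7.15% of all 32851 windows and, taking the first window of each gene, in 9.04% of the 14368 measured genes that have one. The share was 14.1% of 718 genes that fell, 8.88% of 518 that rose and 8.77% of the 13132 that did not pass. By list it was 32.4% of 37 small-subunit processome genes, 23.7% of 38 large-subunit assembly genes and 12.5% of 24 purine and pyrimidine genes. It was 7.32% of 41 cytosolic ribosomal protein genes and 0 of 15 small nucleolar RNA host genes. Among 16 serine, folate and methyl cycle genes it was 6.25%, among 6 polyamine genes 0, and among 25 enteroendocrine genes 12%. Lysosome and autophagy genes held it in 29.2% of 48. Of the 58 measured genes of that list 6 rose and 3 fell, but 1 rose and 4 fell with median centring, 2 rose and 1 fell with the actin covariate, and 1 passed without control 4, 2 without Myc KO 2 and 3 without control 2. A match is a description of these letters and not a bound site.

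Printed are 120 bases before the start, in the direction of transcription and ending at the start except for Aatf, whose window begins 250 bases before it, for 6 genes of the ribosome assembly and nucleotide lists that fell and hold the motif, chosen by the smallest p. Capitals mark CACGTG. The windows lie at chr17:33940603-33940722 on the plus strand for Wdr46, chr11:93885767-93885886 on the minus strand for Utp18 and chr6:125131763-125131882 on the plus strand for Nop2. Those of Nme1 and Aatf lie on the minus strand at chr11:93968273-93968392 and chr11:84513632-84513751, and that of Atic on the plus strand at chr1:71557036-71557155.
Wdr46: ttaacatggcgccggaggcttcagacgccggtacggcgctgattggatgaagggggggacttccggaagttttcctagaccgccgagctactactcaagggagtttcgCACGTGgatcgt
Utp18: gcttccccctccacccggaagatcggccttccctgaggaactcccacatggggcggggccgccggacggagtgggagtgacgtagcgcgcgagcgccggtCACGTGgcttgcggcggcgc
Nop2: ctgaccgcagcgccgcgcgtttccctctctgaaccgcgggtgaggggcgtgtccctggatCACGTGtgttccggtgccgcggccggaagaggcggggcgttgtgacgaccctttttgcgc
Nme1: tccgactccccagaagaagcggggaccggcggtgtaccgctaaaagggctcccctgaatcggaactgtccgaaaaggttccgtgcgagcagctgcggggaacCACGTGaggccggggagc
Aatf: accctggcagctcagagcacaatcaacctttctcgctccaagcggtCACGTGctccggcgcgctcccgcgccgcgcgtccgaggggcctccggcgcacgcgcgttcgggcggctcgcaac
Atic: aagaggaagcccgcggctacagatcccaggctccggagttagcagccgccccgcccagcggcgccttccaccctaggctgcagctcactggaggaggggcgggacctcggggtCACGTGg

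The motif begins 7 bases before the start in Atic, a bifunctional enzyme of purine synthesis, 12 in Wdr46, 18 in Nme1, a nucleoside diphosphate kinase gene, 20 in Utp18 and 60 in Nop2, a ribosomal RNA methyltransferase gene. In Aatf, of the small-subunit processome, it begins 204 bases before. These genes changed by -0.84 (Wdr46), -0.66 (Utp18), -0.72 (Nop2), -0.58 (Nme1), -0.58 (Aatf) and -0.63 (Atic). Utp18 was lost with its probe sets averaged (adjusted p = 0.0599) and Nme1 with the actin covariate (0.0736). Aatf was lost with that covariate and without control 2, control 4 or Myc KO 1, 2 or 3 (adjusted p up to 0.138). Atic was lost under the same settings, without control 1, after quantile normalization and with its probe sets averaged (up to 0.141).

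The lists of G1/S and of G2/M genes had few calls, 1.75% and 0 against 8.31% of all genes. Of 57 G1/S and replication genes 1 fell, Rnaseh2a (-0.61 ± 0.15, adjusted p = 0.0202), lost without control 2, control 4 or Myc KO 2 and with the actin covariate (adjusted p up to 0.101). Of 72 G2/M and mitosis genes 0 passed, and both medians were -0.09. In QKO against E2f TKO, where 17.0% of all genes passed, 13 G1/S genes were higher and 3 lower (median 0.21). Of the G2/M genes 0 were higher and 14 lower there (median -0.29). Without the arrays labelled E2f TKO 2 and 5 the G1/S list had 9 higher and 2 lower (median 0.23). The G2/M list then had 1 higher and 4 lower (median -0.09). The D-type cyclins, which partner Cdk4 and Cdk6 at the start of the cycle, moved apart. Ccnd2 read 11.79, 10.99, 11.69 and 11.43 in the control and 12.91, 13.02, 12.99 and 13.03 in the Myc KO arrays (1.51 ± 0.18, adjusted p = 0.000134), and its 6 other probe sets changed by 1.04 to 1.53. Ccnd1 read 9.94, 10.20, 10.33 and 10.62 and then 9.56, 9.26, 9.67 and 9.57 (-0.75 ± 0.20, adjusted p = 0.0257). The Ccnd1 call was lost without control 2, 3 or 4 or Myc KO 1 or 2 and with the actin covariate (adjusted p up to 0.129). The other Ccnd1 probe sets changed by -0.71 and -0.98. Ccnd3 did not pass (0.08). Rb1, the retinoblastoma gene, fell (-0.65 ± 0.14, adjusted p = 0.0103), and the inhibitor gene Cdkn2c, with a difference of 0.48 ± 0.14 (adjusted p = 0.0366), was lost without control 1 or 4 or Myc KO 1, 3 or 4, with median centring and with the Xist or actin covariate (adjusted p up to 0.103). The inhibitor Cdkn1a, a gene Myc is known to repress, changed by 0.10 and did not pass.

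Among genes that rose without overlap between the groups, Pla2g5, a secreted phospholipase gene, had the largest difference. It read 6.79, 6.56, 7.51 and 6.92 in the control and 8.83, 9.88, 9.18 and 8.77 in the Myc KO arrays (2.22 ± 0.40, adjusted p = 0.00349). Pcp4l1 read 6.86, 6.21, 6.64 and 6.80 and then 7.79, 8.26, 8.38 and 8.19, and Hs3st1, a heparan sulfate sulfotransferase gene, 7.53, 7.56, 8.17 and 7.87 and then 8.57, 9.40, 9.49 and 9.23 (1.53 ± 0.32 and 1.39 ± 0.23). The Pcp4l1 call was lost with the actin covariate (adjusted p = 0.0568). Neurl3, a ubiquitin ligase gene, changed by 1.34 ± 0.24 and Plekhb1 by 1.17 ± 0.17. Tifa, an adaptor of NF-kappaB signalling, read 7.53 to 7.93 in control arrays and 8.52, 10.27, 8.86 and 8.28 in Myc KO arrays (1.24 ± 0.32, adjusted p = 0.0265), with Myc KO 2 well above the rest. Its call was lost without control 1, 2 or 4 or Myc KO 2 and with the actin covariate (adjusted p up to 0.0803).

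Some of these rises depend on the probe set. Ctsl, the cathepsin L gene, read 7.02, 6.76, 6.27 and 6.43 in the control and 7.75, 8.61, 7.89 and 7.90 in the Myc KO arrays (1.42 ± 0.20, adjusted p = 0.000757), but its other probe set changed by -0.19. Glipr1 changed by 1.52 ± 0.31 and its other probe set by 0.13. Klf6, a gene Myc is known to repress, changed by 1.03 ± 0.24 (adjusted p = 0.0135) and its 4 others by -0.27 to 0.05. Klf6 was lost without control 4 (adjusted p = 0.0510) and with the actin covariate or its probe sets averaged (adjusted p up to 0.738). Of 908 called genes with several probe sets, 514 (56.6%) had all of them on the same side, and in 53 another probe set was called in the opposite direction.

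Tgfbr2, the type II receptor of TGF-beta and another gene Myc is known to repress, read 8.86, 8.24, 8.81 and 9.02 in the control and 9.86, 10.27, 10.18 and 10.24 in the Myc KO arrays (1.40 ± 0.25, adjusted p = 0.00283), and its other 2 probe sets changed by 0.15 and 0.85. Smad4, the shared effector of TGF-beta and BMP receptors, read 11.31 to 11.49 in control and at most 11.07 in Myc KO arrays (-0.39 ± 0.06, adjusted p = 0.00172), a call lost with its 3 probe sets averaged (adjusted p = 0.287). Over the 35 measured genes of the pathway, 3 rose and 1 fell, but 1 rose and 1 fell with quantile normalization, median centring or the actin covariate. The other rises, Inhba (0.24, adjusted p = 0.0340) and Id4 (0.52, adjusted p = 0.0426), were lost under those settings, and 2 of the 4 calls were left without any 1 of the 8 arrays other than control 1. Of 23 genes known to be repressed by Myc, 3 rose and 2 fell, with a median of 0.06. With median centring 2 rose and 3 fell, with the actin covariate 1 rose and 0 fell, and without control 4 the list had 1 call.

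Car4, a membrane carbonic anhydrase gene, had the largest fall among genes whose arrays do not overlap. It read 10.98, 11.43, 11.62 and 11.10 in the control and 9.55, 8.42, 8.59 and 8.74 in the Myc KO arrays (-2.46 ± 0.41, adjusted p = 0.00211), and its other probe set changed by -2.64. It was the 1 called gene among 32 enterocyte genes, whose median was 0.02. 2010204K13Rik read 8.07, 8.23, 7.58 and 8.63 and then 6.57, 6.10, 6.23 and 6.50 (-1.78 ± 0.24), and Ccnb1ip1, a gene of meiotic recombination, 6.87 to 7.11 and then 5.11 to 5.74 (-1.53 ± 0.31). Mtm1, a phosphoinositide phosphatase gene, changed by -1.43 ± 0.24, and its other probe sets by -1.70 to -0.03. Ifitm3, of the interferon-induced transmembrane family, read 11.09 to 11.75 and then 9.45 to 10.82 (-1.45 ± 0.30, adjusted p = 0.00827), lost with the actin covariate (adjusted p = 0.0573).

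Among 19 measured Wnt target genes of the crypt 5 rose and 1, Ccnd1, fell. Their median was 0.29, or 0.21 after either rescaling and 0.13 with probe sets averaged per gene. Etv4, an ETS factor gene, read 7.31, 7.18, 7.26 and 7.32 in the control and 8.36, 8.12, 8.29 and 8.33 in the Myc KO arrays (1.01 ± 0.15, adjusted p = 0.000987). Ephb3, the ephrin receptor gene that keeps Paneth cells at the crypt base, changed by 0.77 ± 0.19 (adjusted p = 0.018). Tnfrsf19 (1.20 ± 0.33, adjusted p = 0.0330) and Rnf43 (0.53 ± 0.15, adjusted p = 0.0371), markers also of the stem cell list, were each lost when any of several single arrays was left out (adjusted p up to 0.0845 without any 1 of control 1 to 4 or Myc KO 1 to 3, and up to 0.0921 without any 1 of the 8). Tnfrsf19 was also lost with the actin covariate (0.127) and Rnf43 with median centring (0.0716). Both calls in the crypt base stem cell list (2 of 17 higher, 0 lower) are these genes. Without control 2 the Wnt list had 2 calls, and with the actin covariate 3. In QKO against E2f TKO, where 17.0% of all genes passed, the stem cell list had 6 genes higher and 0 lower (median 0.27). The Wnt list had 9 higher and 0 lower there (median 0.29). Without the arrays labelled E2f TKO 2 and 5 these were 7 and 8 higher, with 0 lower in each list.

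Of the secretory lineage lists, 10.7% of enteroendocrine, 4.17% of goblet and 0 of Paneth cell genes passed, against 8.31% of all genes. In the enteroendocrine list 27 of 28 measured genes lay above control with a median of 0.31, and 3 rose, or 1 without control 3 and 2 with the actin covariate. Neurod1, a transcription factor gene of that lineage, read 6.60, 7.01, 6.86 and 6.97 in the control and 7.40, 7.52, 7.48 and 7.30 in the Myc KO arrays (0.57 ± 0.10, adjusted p = 0.00283), lost with its 2 probe sets averaged (adjusted p = 0.0672). Gip, the incretin hormone gene, changed by 0.53 ± 0.13 (adjusted p = 0.0209) and was lost without control 3 or Myc KO 2, 3 or 4 and with the actin covariate (adjusted p up to 0.0629). Reg4 changed by 0.49 ± 0.14 (adjusted p = 0.0359) and was lost without any control array or Myc KO 1, 2 or 3, with median centring and with the actin covariate (adjusted p up to 0.151). List means did not overlap, at 7.84 to 8.12 in control and 8.18 to 8.42 in Myc KO arrays. Of 12 measured Paneth cell genes 0 passed. Of 24 goblet cell genes 1 rose, Retnlb, a secreted resistin-like protein gene, which read 12.30, 12.18, 12.17 and 11.86 and then 12.59, 14.23, 13.61 and 12.97 (1.22 ± 0.36, adjusted p = 0.0422). The Retnlb call was lost without any 1 of the control arrays, Myc KO 2, Myc KO 3 or QKO 3, and under 4 other settings (adjusted p up to 0.152).

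Markers of immune cells moved with some arrays. In the mast cell list 3 of 12 genes rose and its mean was 5.74 to 5.90 in control and 5.90 to 6.52 in Myc KO arrays. Mcpt2, a mucosal mast cell protease gene, read 8.19, 7.70, 7.21 and 8.09 in the control and 10.43, 9.95, 8.32 and 9.21 in the Myc KO arrays (1.68 ± 0.39, adjusted p = 0.0148). Mcpt1, of the same cells, read 7.04 to 7.73 and then 10.07, 9.66, 7.44 and 8.62 (1.46 ± 0.40, adjusted p = 0.0304), so its groups overlap. Both are highest in Myc KO 1 and 2. Mcpt2 was lost without either of these arrays, Mcpt1 also without control 2, 3 or 4 and when the other 10 arrays were not fitted, and both with the actin covariate (adjusted p up to 0.113). Of 18 T cell genes 1 rose (median 0.37), and 0 with median centring or the actin covariate, and list means of 6.50 to 7.72 and 6.88 to 7.62 overlapped. In the interferon response list all 32 genes lay above control (median 0.39), 0 passed, and list means of 6.93 to 7.93 and 7.22 to 8.81 overlapped. Its median was 0.17 without Myc KO 4. Fibroblast and smooth muscle genes had 0 calls of 20.

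**Figure D3:**
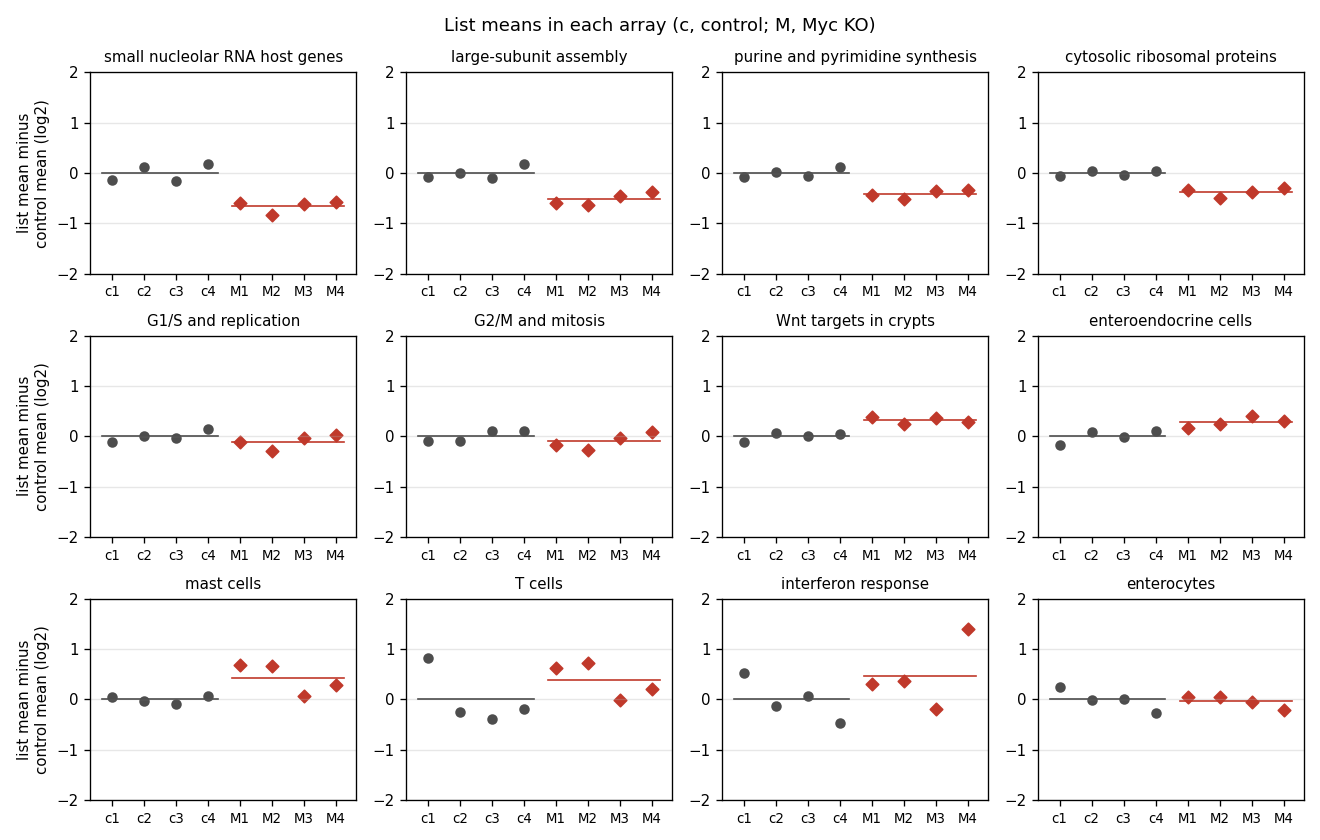
Mean log2 signal of 12 gene lists in each array, minus the mean of the 4 control arrays (y axis), for control arrays c1 to c4 (circles) and Myc KO arrays M1 to M4 (diamonds), with horizontal lines at group means. The top panels, the Wnt target list and the enteroendocrine list separate the groups without overlap, while the cell cycle, T cell, interferon and enterocyte lists overlap.

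The comparison of QKO with E2f TKO measures Myc loss again, in crypts labelled as lacking E2f1 to E2f3, and shares no array with Myc KO against control. Both comparisons come from the same fit and share its estimate of each gene's spread, so their calls are not independent. Array medians again did not overlap, at 6.14 to 6.19 in E2f TKO and 6.23 to 6.26 in QKO arrays. QKO against E2f TKO called 3100 genes, which is 17.0%. Of these, 1006 were called in the same direction in both, 629 lower and 377 higher. That is 66.6% of the Myc KO calls and 32.5% of the QKO calls. Of the genes that fell in Myc KO crypts 73.3% also fell there, and of those that rose 57.7% also rose. Disregarding the test, 96.5% of the 1511 calls kept their sign, against 73.0% of all genes. The arrays labelled E2f TKO 2 and 5 had Cyp1a1 signals of 5.05 and 4.91, against 12.66 or more in all others, and E2f3 signals of 9.35 and 9.10, above all control arrays (8.62 to 8.96). E2f2 in the QKO arrays (9.18 to 9.41) was not below control (8.91 to 9.28), and neither was E2f1 (7.73 to 8.27 against 7.70 to 8.05). Another E2f1 probe set read 7.82 to 8.25 in QKO and 7.10 to 7.47 in control arrays. Whether these probe sets lie in the deleted parts was not tested. Without them 1889 and 2155 genes were called and 800 in both, 42.4% and 37.1% of the lists.

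**Figure D4:**
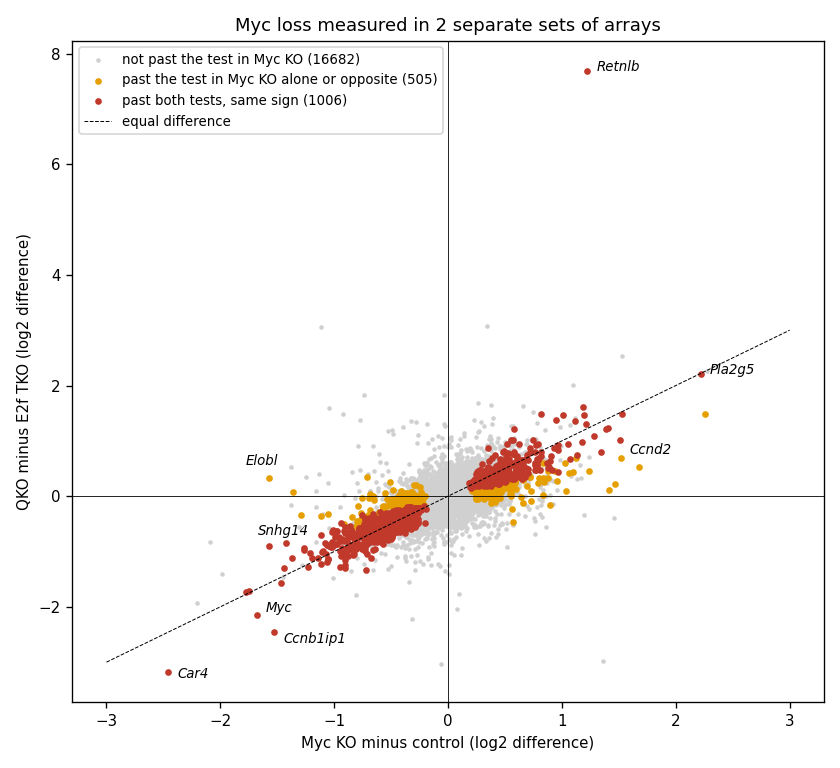
Log2 difference of each of 18193 genes in Myc KO minus control (x axis) and in QKO minus E2f TKO (y axis). Red points (1006) passed both tests with the same sign, orange points (505) passed in Myc KO alone or with the opposite sign, grey points did not pass in Myc KO, and the dashed line marks equal differences. Retnlb lies far above the line.

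Myc and the other genes with the smallest p in both comparisons were chosen for being called in both, so their values are a description. Myc read 10.07, 10.50, 9.99, 10.66 and 10.27 in E2f TKO arrays 1 to 5 and 8.52, 7.94, 8.24, 8.05 and 8.02 in QKO arrays 1 to 5, a difference of -2.15 (adjusted p = 1.57e-07). Ipo4 read 9.88, 10.13, 9.93, 10.19 and 10.04 and then 9.16, 8.89, 9.01, 8.98 and 8.80 (-1.07, adjusted p = 4.51e-07). Neither overlaps between groups. Pecr, a peroxisomal enoyl-CoA reductase gene, changed by -1.04 in Myc KO and -0.90 in QKO, Slc33a1, an acetyl-CoA transporter gene, by -0.78 and -0.87, and Dnajc17 by -0.82 and -0.69. In Myc KO minus control the other Dnajc17 probe sets changed by -0.29 and -0.005, and the other Pecr probe set by -0.45. Gm10791 rose in both, by 1.21 and 1.31. These are among the 8 genes with the smallest p in both, and all passed without the arrays labelled E2f TKO 2 and 5. The list medians in QKO minus E2f TKO were -0.42 for the small-subunit processome, -0.54 for large-subunit assembly, -0.66 for small nucleolar RNA host genes and -0.22 for cytosolic ribosomal proteins. Without those 2 arrays they were -0.31, -0.46, -0.41 and -0.14, with 14, 25, 8 and 6 members lower.

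A test of the interaction asked whether Myc loss changed a gene by a different amount in the arrays labelled with and without deletion of E2f1 to E2f3. It called 10 genes, 0.0550%, and 1153 had an unadjusted p below 0.05. Of the 10, Retnlb and Elobl were also called in Myc KO against control. Retnlb differed by 1.22 in Myc KO and by 7.69 in QKO (adjusted p of the interaction = 2.05e-06). It read 5.91, 6.06, 7.13, 6.35 and 5.11 in the E2f TKO arrays and 13.44, 14.37, 13.89, 13.84 and 13.47 in the QKO arrays, so the E2f TKO arrays alone lack its high signal. Elobl changed by -1.58 ± 0.18 in Myc KO, with control arrays from 6.62 to 7.54 and Myc KO arrays from 5.20 to 5.79. Its QKO difference was 0.32 (adjusted p of the interaction = 0.00326), with 4.90 to 5.32 in E2f TKO and 5.23 to 5.92 in QKO arrays. Leaving out E2f TKO 2 and 5 kept both interaction calls (8.37e-06 for Retnlb and 0.00974 for Elobl, adjusted p). The genes called in opposite directions in both comparisons were Trappc6a (-0.29 and 0.19), Prxl2c (0.57 and -0.47) and Plcl1 (-0.28 and 0.20), and none of these 3 passed the interaction test (adjusted p = 0.0796 to 0.122).

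Other Myc KO calls had no counterpart in QKO, and the difference between them did not pass the interaction test. Ctsl (1.42 and 0.11, interaction adjusted p = 0.122), Mylk3, a kinase gene (-1.36 and 0.07, 0.164), Ccnd1 (-0.75 and -0.04, 0.695) and Klf6 (1.03 and 0.09, 0.662) are examples. Ctsl read 7.59 to 8.32 in E2f TKO and 7.74 to 8.27 in QKO arrays, near its Myc KO level, and Ccnd1 read 9.87 to 10.72 and 10.14 to 10.98, near its control level. Ccnd2, in contrast, passed in both (1.51 and 1.02), and its 5 QKO arrays (13.18 to 13.85) lay above the 5 E2f TKO arrays (12.15 to 12.79).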

How the data were processed

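RNA of mouse small-intestinal crypts was measured on 18 3' expression arrays of 4 groups. The authors deposited a log2 signal for each probe set and array, and the method of summary and normalization is not given in the sources used here. Control probe sets and those with several gene symbols or none were left out, which left 34945 probe sets of 18193 genes. Where a gene had several (9010 genes), the one brightest on average over the 18 arrays stood for it. One model of 4 group means over 18 arrays was fitted in limma 3.58.1 (R 4.3.3), with empirical Bayes and Benjamini-Hochberg adjustment over the 18193 genes, 2-sided, at 0.05. QKO minus E2f TKO and the interaction came from the same fit. The number of arrays limits the precision. No 2 arrays held identical values.

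Genes were named by rule: the deleted genes, the 16 largest differences in each direction among called genes whose arrays do not overlap, the 6 smallest p in each direction, up to 5 called members of each list and up to 3 in the other direction, called members of the Myc network and D-type cyclin lists, the 8 smallest p in both comparisons, up to 6 interaction genes, and tissue markers. Max, Mycn, Mycl, Ccnd3, Cdkn1a and similar uncalled or further members were added for context, as were the promoter genes and the 3 genes called in opposite directions. The members and the 49 lists were chosen with earlier results of these data known. Alternatives were quantile normalization, median centring, other probe set rules, fewer arrays, a replicate block, other variance settings, covariates and leaving out each array. Figures were drawn with matplotlib 3.10.9 (Python 3.11.15).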

Additional observations from a re-analysis of the deposited data

Results flagged for a closer look

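Single arrays stood apart from the other 3 of their group in 17 of 356 groups of named genes and in 4 of 98 groups of list means, by a gap above the 95% limit of Dixon's test. Chance marks about 1 in 20 such groups. Myc KO 2 was the lowest of its group for Dctd (6.29), Pecr (7.95), Nsa2 (10.55), Eif3f (12.47), Eif4b (11.38) and Snhg8 (10.03), and for the mean of the small nucleolar RNA host genes (8.46). Myc KO 4 was the highest for Rpl22l1 (12.11), Nme2 (13.09) and the mean of the red blood cell list (6.16), and the lowest for Atp5d (13.70). Myc KO 3 was the highest for Reg4 (12.97) and the lowest for Aldh3a1 (2.99) and Pecam1 (4.83). Myc KO 1 was the highest for the mean of the Myc, Max and Mxd network (8.70) and the lowest for that of the respiratory chain (12.74). Among control arrays, control 4 was the highest for Dnttip2 (9.48) and the lowest for Mcpt4 (5.03), control 1 the lowest for Reg4 (11.93) and the highest for Nlrc5 (4.62), and control 2 the lowest for Calr (13.29).

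For 6 named genes the effect of Myc loss differed between crypts labelled with and without deletion of E2f1 to E2f3 by the interaction test (QKO minus E2f TKO, less Myc KO minus control, limma). They were named for the smallest p of that test, so their passing was set by the choice. The interaction was 6.47 for Retnlb, 1.90 for Elobl, 1.50 for 9930104L06Rik (adjusted p = 0.00136), 1.61 for Scpep1 (0.00798), 1.14 for Ndufs5 (0.00853) and -1.42 for Amacr (0.00861). All 6 passed without the arrays labelled E2f TKO 2 and 5 (adjusted p up to 0.0292). In Myc KO minus control Scpep1 changed by -0.48 and its other probe set by -1.10.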

How the results depend on the processing

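The count of 1511 called genes was 2681 when only the 8 arrays were fitted, 3427 with array weights, 3014 with every probe set tested and 560 with the actin covariate. It ranged from 640 to 2227 when 1 array was left out. The 1006 genes called in both comparisons became 1898 with array weights, 1959 with every probe set tested and 357 with the actin covariate, and ranged from 490 to 1580 without 1 array. The 10 interaction genes became 6 among genes above the median level and 22 with every probe set tested, and ranged from 6 to 14. Same-numbered arrays deviated together with r of 0.25, -0.08, 0.17 and 0.18, so not every pair passed 0.1 and the numbers were not taken to pair the arrays; a replicate block gave 1821 calls. Of 1511 calls, 1184 remained with quantile normalization, 1143 with median centring and 976 with probe sets averaged per gene. Of 162 named called genes, 87 kept their direction and call in all 13 settings and 18 omissions of an array, 75 lost the call in at least 1, and 2 turned direction: Atp6v1b2 (-0.022 with its probe sets averaged) and Grsf1 (0.20 without _s_at and _x_at probe sets). With the actin covariate 58 lost the call. The causes were not tested. Signals came without detection calls, so changes of dim genes are the least certain.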

Other observations

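Calls in gene groups not described above are set beside the 8.31% of all genes that passed (3.59% rose and 4.72% fell). Tuft cell genes had 2 of 19 higher and 0 lower (median 0.15), but 0 higher and 1 lower with quantile normalization or median centring, 0 calls with the actin covariate, and 0 without control 2 or 4 or any 1 of the Myc KO arrays. In QKO against E2f TKO 11 were higher, or 7 without E2f TKO 2 and 5. Of 19 genes of MHC class I and antigen processing, 3 rose and 0 fell (median 0.19), with 0 calls under median centring and without control 2, 3 or 4 or Myc KO 2, and 1 with the actin covariate or without Myc KO 4. Of 20 cholesterol synthesis genes 1 fell (median -0.18), but 0 fell and 1 rose with quantile normalization and 0 passed with the actin covariate. Of 19 amino acid transporter genes 0 passed in limma, and of 24 p53 target genes 1 rose and 1 fell, or 0 of either without control 1. Of 10 E2f family genes 0 passed, with E2f1 at 0.12 ± 0.11, E2f2 at -0.13 ± 0.14 and E2f3 at -0.25 ± 0.20. In the list of aryl hydrocarbon receptor response genes, which the inducer of Ah-cre can switch on, the median was 0.34 and 7 of 9 lay above control, with Cyp1b1 at 2.28 (adjusted p = 0.183). The 1 call was Aldh3a1, lower by limma (-0.33 ± 0.08, adjusted p = 0.0152) at mean signals of 3.49 and 3.16, far below the array medians.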
